A study of Onthophagus taurus with 15 samples.

Results

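The clones described here are those whose expression parted the head horn from the thoracic horn in male pupae of Onthophagus taurus, a dung beetle whose large males carry horns. They number 86 of the 3182 clones that had a value on all 15 arrays, out of 3840 clones in the table. Of the members, 24 were higher in head horn and 62 were higher in thoracic horn. A clone was a member when its head horn and thoracic horn values differed by 0.8 or more on the log2 scale, when the difference had the same sign in all 5 letters of arrays (A to E), and when head horn, thoracic horn and legs were not all at 0.3 or more. The tissue value used for this choice, called the balanced mean below, is the average of the mean over letters A, C and E and the mean over letters B and D. The arrays of both horns, 5 for head horn and 5 for thoracic horn, therefore chose the members, and their difference is given as a description with no test. The leg arrays entered the choice through the last condition.

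The arrays were spotted with cDNA clones and carried 2 colours, so that each compared appendage RNA with RNA from the epithelium of the dorsal abdomen. Head horn had 5 arrays, as did thoracic horn and legs, and all tissue was from large males within 24 h of pupation that were raised in a laboratory colony, and no genotype or treatment separated the groups. Each RNA sample pooled tissue of 4 pupae, and the same animals gave the appendage and the abdomen of an array. In every tissue the appendage was labelled with Cy3 on letters A, C and E and with Cy5 on letters B and D. Each value is a log ratio read as log2, where values above 0 probably stand for more RNA in the appendage than in abdomen, a direction that the sources used here do not settle. If it ran the other way, every sign would turn, the members counted as higher in head horn would be those higher in thoracic horn and the reverse, and the last condition would have taken out clones lowered in all 3 appendages. Each sample is a bulk tissue, so fewer cells of a type and less RNA per cell cannot be told apart.

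Beetle horns are outgrowths of the epidermis that have no joints, muscles or nervous supply like those of a limb, and they arise in body regions where other insects carry no appendage. Genes of the limb patterning network, among them Distal-less, dachshund and homothorax, are known to be expressed in growing Onthophagus horns too, although not with the same roles in every horn. The horns differ in their fate. In Onthophagus taurus the head horn of large males is kept in the adult, whereas the thoracic horn of the pupa is removed by cell death before the adult emerges. Dorsal abdominal epithelium, the common comparison tissue, forms no outgrowth.

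Each array held values for 3511 to 3808 clones, and array medians lay between -0.07 and 0.15. None of the 3840 clone IDs (0) matched the supplied gene table of 16956 genes, so clones are given by their IDs, tissue markers could not be checked, and no sequence is shown. Clones can be copies of a shared transcript, and a number of clones is not a number of genes. All 86 members passed the filter of the model fit, which tested 3777 clones.

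The choice of members narrowed in 3 steps. A horn difference of 0.8 or more was found in 169 complete clones, 87 higher in head horn and 82 higher in thoracic horn. In 56 of these the sign was not the same in all letters, which left 113 clones, 49 higher in head horn and 64 higher in thoracic horn. The last condition then took out 27 clones that were raised in all 3 appendages, 25 of them higher in head horn and 2 higher in thoracic horn. The members thus numbered 24 and 62 in these directions, where 49 and 64 met the rule before the last condition. Just inside the threshold lay OtL015-B12 (-0.80) and OtP005-D09 (-0.81, or -0.44 without letter A), both higher in thoracic horn, and just outside it lay OtL013-F08 (0.799) and OtL008-H11 (-0.797). In the scatter of both horns the 2 kinds of members flank a narrow cloud of other clones, whose median absolute horn difference over all complete clones was 0.16.

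**Figure D1:**
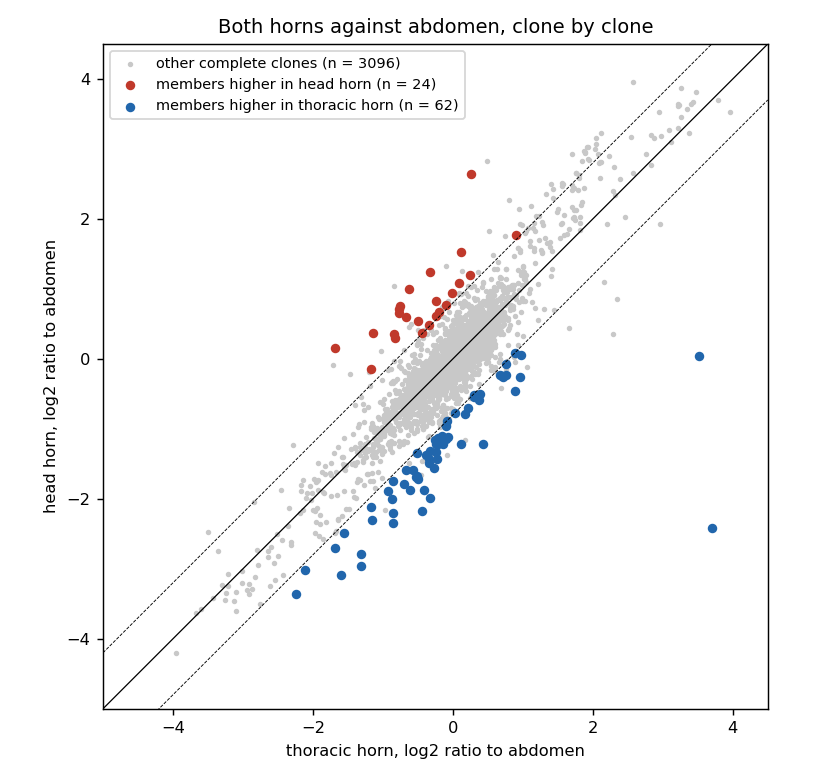
Balanced mean of each clone in head horn (vertical axis) and thoracic horn (horizontal axis), both as log2 ratio to abdomen; red points are the 24 members higher in head horn, blue points the 62 members higher in thoracic horn, grey points the other complete clones, and dashed lines mark a difference of 0.8. The members higher in thoracic horn run along the lower side of the cloud from strongly negative ratios upwards, and 2 of them stand apart at thoracic horn ratios of 3.70 and 3.52.

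The same rule was also applied to 4 letters, and the difference was read in the fifth, whose arrays took no part in that choice. Leaving out letter A, the rule chose 102 clones, and 89 of them (87.3%) had the same sign in letter A. The corresponding shares were 94 of 110 clones (85.5%) for B, 81 of 88 (92.0%) for C, 72 of 81 (88.9%) for D and 91 of 106 (85.8%) for E. Over all complete clones the sign in the omitted letter matched that of the other 4 in 56.5% to 60.7% of clones. Those clones had a median absolute horn difference of only 0.16, so the sets are not alike and the shares are a description. The size of the difference was smaller in the omitted letter than in the 4 that chose the clones for A, B, D and E, and larger for C. Its median in the omitted letter was 0.79 (A), 0.52 (B), 1.15 (C), 0.90 (D) and 0.79 (E), against 1.04, 1.09, 1.03, 1.13 and 1.06 in the letters that chose the clones. The 86 members below were chosen on all letters, and no array was kept aside for their sizes.

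**Figure D2:**
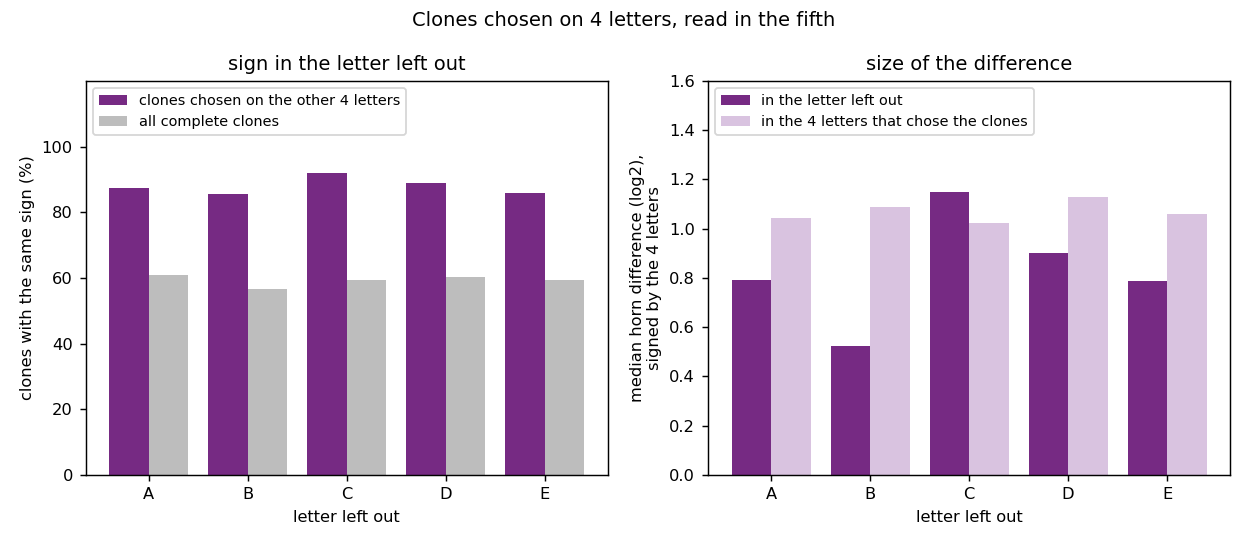
Left, share of clones (%) whose head minus thoracic horn difference in the omitted letter had the sign seen in the other 4 letters, for the clones chosen on those 4 letters (purple) and for all complete clones (grey); right, median of that difference on the log2 scale in the omitted letter (dark) and in the 4 letters that chose the clones (light). The purple shares lie between 85.5% and 92.0%, and letter C is the only one where the median was larger than in the letters of the choice.

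Of the 86 members, 47 still met the whole rule when any 1 letter was left out, 12 of those higher in head horn and 35 of those higher in thoracic horn. Letter D cost most, with 19 members that no longer met the rule without it, followed by B and C with 13 each. In the balanced mean, B and D each weigh more than A, C or E, so the letters do not bear equally on the rule. A member could also be lost through the last condition, as was OtL016-A04, whose horn difference stayed at 2.31 or more. In 18 members the difference of 1 letter was over 3 times the median of the other 4, and in 9 of these it was letter C. Without that letter the difference of these clones was between 0.23 and 1.06 in size, and in 11 of them it moved by over 1.5 times. Among these 11 were OtP004-E10 (-0.58 without letter A, against -1.09) and OtL015-D05 (-0.53 without letter B, against -0.95), both named after their values were seen.

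The larger kind of member, with 62 clones higher in thoracic horn, consisted mostly of clones that stood lower in head horn than in abdomen. Their balanced means had a median of -1.34 in head horn (-3.36 to 0.08), -0.25 in thoracic horn (-2.23 to 3.70), with legs at -1.33 (-3.26 to 2.24). Over all complete clones the medians were 0.03, 0.02 and 0.07. Head horn was below 0 in 59 of the 62 clones, thoracic horn in 42 and legs in 52. In 30 of them thoracic horn lay within 0.5 of abdomen. The heat map shows the group as blue in head horn and legs and pale in thoracic horn, with a few red rows in thoracic horn alone.

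**Figure D3:**
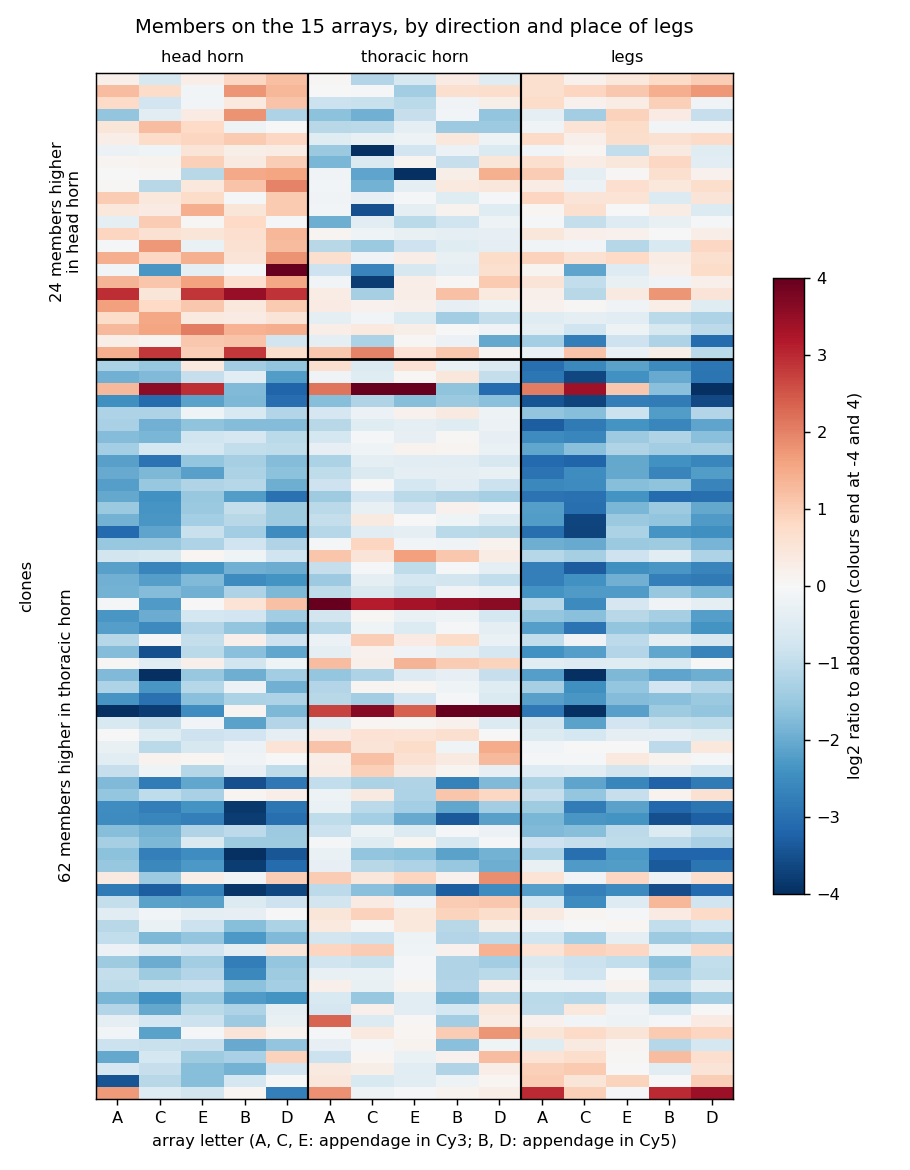
Log2 ratio to abdomen of the 86 members (rows) on the 15 arrays (columns, grouped by tissue, letters A, C, E and then B, D), with the 24 members higher in head horn above the line and the 62 higher in thoracic horn below it; within each part, rows run from clones whose legs lie on the side of head horn down to those whose legs lie on the side of thoracic horn. Blue is lower and red is higher than abdomen, and colours end at -4 and 4.

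A clone is called here when its adjusted p was under 0.05 in a linear model over all clones and arrays (limma, Benjamini-Hochberg). Shares of all tested clones include clones without a value on every array, which no member is. With complete clones fitted alone, the shares called against abdomen were 44.7% (head horn), 42.5% (thoracic horn) and 48.5% (legs). In the main fit they were 37.1%, 34.2% and 39.9%. Against abdomen, 49 of the 62 clones were called negative and 0 positive in head horn, where 18.9% and 18.2% of all tested clones were. In thoracic horn 21 were called negative and 11 positive, where the shares over all clones were 17.3% and 16.9%. The choice of members used these arrays, so nothing is read from these counts. Reading head horn, thoracic horn and legs in that order, 20 clones were called negative in all 3 tissues, 18 in head horn and legs but not in thoracic horn, and 8 in head horn alone, patterns held by 10.3%, 2.67% and 2.20% of all tested clones. A further 6 were called positive in thoracic horn and in neither other tissue, as were 3.20% of all tested clones. The rule used the horns, so these shares too are a description. A tissue where a clone was not called is not thereby shown to equal abdomen.

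OtL014-H10 had by far the widest horn difference, a balanced difference of -6.11 (head minus thoracic horn). Its log2 ratios in letters A to E were -5.67, 0.10, -3.80, -1.78 and -2.50 in head horn, 2.71, 4.49, 3.63, 4.48 and 2.40 in thoracic horn, with legs at -2.86, -1.42, -5.68, -1.56 and -2.18. Every thoracic horn array lay above every head horn and leg array, and head horn spread widely (SD 2.16, n = 5). Legs were lower than abdomen, at -2.51 ± 0.50 (fit ± SE, adjusted p = 0.00126 by limma). They did not differ detectably from head horn (difference 0.01 ± 0.70, adjusted p = 0.995 by limma), although that error leaves room for a sizeable gap.

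OtP012-E12 was the second clone raised strongly in thoracic horn alone, with a balanced horn difference of -3.48. It read -0.05, 0.54, -2.28, 1.18 and 0.03 in head horn, 4.02, 3.50, 3.14, 3.61 and 3.34 in thoracic horn, with legs at -1.15, -0.15, -2.56, -0.35 and -0.66. The thoracic horn arrays were close together (SD 0.33, n = 5), and none overlapped with head horn or legs, both of which were lowest in letter C. The fit for legs was -0.88 ± 0.35 (SE, adjusted p = 0.0597 by limma), just short of the threshold. Without letter C it was -0.58 and called (adjusted p = 0.0283 by limma).

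Of the 11 members called positive in thoracic horn, the other 9 were far closer to abdomen than this pair, with balanced means between 0.39 and 0.96. OtP012-D08, 1 of 3 members with opposite calls in the horns, had a horn difference of -0.90. It stood at 0.01, -0.75, -0.48, -0.39 and -0.84 in head horn, 0.32, 0.63, 0.57, -0.01 and 0.54 in thoracic horn, with legs at -0.53, -0.32, -0.69, -0.47 and -0.36. Legs were lower than abdomen by a small and steady amount, -0.48 ± 0.13 (SE, adjusted p = 0.00759 by limma). Thoracic horn exceeded legs by 0.88 ± 0.18 (SE, adjusted p = 0.0086 by limma), which was not called without letter C (0.79, adjusted p = 0.0609 by limma). The call held with the letter as a random replicate block (adjusted p = 0.00267 by limma).

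The next largest differences belonged to clones that were low in head horn and legs. OtL008-B01 read -2.19, -1.93, -2.63, -1.98 and -2.35 in head horn, -0.91, -0.07, -0.06, -0.38 and -1.02 in thoracic horn, with legs at -2.74, -2.33, -3.32, -2.63 and -2.45. The thoracic horn values of this clone lay apart from those of both other tissues. Legs fell to -2.65 ± 0.15 relative to abdomen (SE, adjusted p = 1.60e-08 by limma), and thoracic horn exceeded legs by 2.21 ± 0.20 (SE, adjusted p = 4.73e-05 by limma), or 4.63-fold.

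OtP014-A01 had the same shape, at -1.73, -1.68, -3.52, -2.06 and -1.07 in head horn, -0.38, -0.37, 0.17, -0.68 and -0.15 in thoracic horn, with legs at -2.43, -2.09, -2.19, -2.67 and -1.18. Thoracic horn was again above all arrays of the other tissues. Its excess over legs was 1.83 ± 0.39 (SE, adjusted p = 0.0126 by limma) and was not called without letter A (adjusted p = 0.0576) or D (adjusted p = 0.0575). The excess was called with the letter as a random replicate block (adjusted p = 0.00244 by limma).

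OtP020-G02 and OtL007-G01 were low in all 3 tissues and least so in thoracic horn. OtP020-G02 read -2.49, -3.86, -2.76, -2.89 and -2.40 in head horn, -0.27, -2.07, -1.08, -1.38 and -1.37 in thoracic horn, with legs at -1.43, -3.14, -2.79, -2.93 and -2.13. OtL007-G01 read -1.65, -4.35, -2.73, -3.43 and -2.49 in head horn, -0.28, -2.15, -1.58, -1.90 and -1.66 in thoracic horn, with legs at -1.27, -3.17, -3.03, -3.18 and -2.30. In both clones letter A was the highest array of thoracic horn and of legs and letter B the lowest of both horns. Within each tissue, letters A, C and E all lay above letters B and D, so the shared movement went along with the dye layout. Thoracic horn exceeded legs by 1.25 ± 0.28 in OtP020-G02 (SE, adjusted p = 0.0156 by limma; not called without letter C or D) and by 1.08 ± 0.37 in OtL007-G01 (SE, adjusted p = 0.0769). OtL007-G01 was called without letter A (adjusted p = 0.0376 by limma) and with the letter as a random replicate block (adjusted p = 0.00919 by limma). That block also kept the call of OtP020-G02 (adjusted p = 0.0015 by limma). The call of OtP020-G02 was lost when the model held no term for dye layout (adjusted p = 0.0713 by limma).

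The remaining pair of the 8 largest differences in this direction was less even. OtP008-G03 read -0.94, -0.55, -2.13, -0.82 and -2.18 in head horn, -0.73, 1.01, 0.34, 1.08 and -0.13 in thoracic horn, with legs at -0.69, 1.33, -2.51, -0.81 and -0.53, and the arrays of the horns overlapped. OtL007-H11 read -1.75, -1.94, -5.84, -1.38 and -1.5 in head horn, -1.53, -0.33, -1.22, -0.93 and -0.50 in thoracic horn, with legs at -2.21, -2.11, -4.46, -1.95 and -1.78. Letter C of head horn stood far below the others, and without it the horn difference of OtL007-H11 was -0.82 in place of -1.49.

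Several members had nearly the same profile over the 15 arrays. Average linkage on the root mean square difference between clones, joined at a height of 0.5 chosen after the values had been seen, gave 59 sets, 44 of them single clones and 3 with at least 4 members. OtL003-A08, OtL002-A03, OtL014-D06, OtL003-B11 and OtL004-B04 formed the largest set, with medians of -1.59 in head horn, -0.42 in thoracic horn, with legs at -2.16. OtL010-H05, OtL013-D12, OtL005-F02 and OtL008-B01 were similar, with lower legs, at -1.80, -0.50 and -2.63. OtL007-D05, OtP003-F11, OtL007-G01 and OtP020-G02 were at -2.87, -1.46 and -2.54. Clones of a set may be copies of 1 transcript, which the IDs do not tell, and the horn difference of such a set then counts once.

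A smaller number of these profiles placed legs nearer to thoracic horn. OtP003-C07, OtL017-D07 and OtP001-A06 had medians of -1.22 in head horn, -0.24 in thoracic horn, with legs at -0.44. OtP016-E10, OtL015-E08 and OtP009-C07 were at -1.75, -0.86 and -1.07. The horn difference of OtP009-C07 was -0.60 without letter B, against -0.95. These 6 clones, named after their values were seen, thus had lower balanced means in head horn than in either other appendage. Head horn was called below legs only in OtL017-D07 and OtL015-E08 (adjusted p = 0.0423 and 0.0422 by limma, without pairing). In the other clones the adjusted p was between 0.0524 and 0.0978 by limma. Legs of OtP016-E10 and OtP001-A06 lay between the horns, though nearer to thoracic horn.

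The 24 members higher in head horn were a more mixed group and lay closer to abdomen. The last condition, which removes raised clones only, took out 25 of 49 in this direction and 2 of 64 in the other. The distance of these members from abdomen is thus partly set by the rule. Their balanced means had a median of 0.69 in head horn (-0.14 to 2.64), -0.39 in thoracic horn (-1.69 to 0.90), with legs at 0.10 (-1.90 to 1.22). Head horn was above 0 in 23 of them, thoracic horn in 5 and legs in 13. Against abdomen, 11 were called positive in head horn and 6 negative in thoracic horn, and 0 the other way in either tissue, where 18.2% and 17.3% of all tested clones were called with these signs. Both horns fed the rule, so nothing is read from these counts. In 6 clones no tissue was called against abdomen, and in 5 only thoracic horn was, with a negative sign, patterns held by 42.1% and 2.46% of all tested clones.

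OtL016-A04 had the widest difference in favour of head horn, 2.38. Its values in letters A to E were 2.94, 3.48, 0.50, 2.90 and 2.85 in head horn, 0.28, 1.17, -1.34, 0.39 and 0.27 in thoracic horn, with legs at 0.21, 1.77, -1.11, 0.51 and 0.35. Letter C was the lowest array of every tissue, and the same-letter differences between the horns stayed between 1.84 and 2.66. Head horn exceeded legs by 2.19 ± 0.51 (SE, adjusted p = 0.0277 by limma), while thoracic horn and legs lay close together (difference -0.19 ± 0.51, adjusted p = 0.842). Without any of A, B, D and E this call was lost (adjusted p between 0.0668 and 0.0841, limma). The call was also lost when the model held no term for dye layout (adjusted p = 0.0689 by limma). It held with the letter as a random replicate block (adjusted p = 7.90e-04 by limma).

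OtP020-G07 was called with opposite signs in the horns. It read 0.73, 0.34, 1.55, 0.52 and 0.40 in head horn, -0.40, -1.40, -0.09, -0.97 and -0.56 in thoracic horn, with legs at -0.47, -1.09, -0.38, -1.24 and -0.47. Every head horn array lay above all arrays of the other tissues. Legs were below abdomen at -0.80 ± 0.14 (SE, adjusted p = 4.39e-04 by limma), and head horn exceeded legs by 1.44 ± 0.19 (SE, adjusted p = 0.00126 by limma), or 2.71-fold.

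OtL017-A04 was the 1 member higher in head horn whose legs were called below both horns in the fit without pairing. With the letter as a random replicate block there were 3, the others being OtL012-A04 and OtP003-H05. The share of all tested clones with both calls was not counted, so nothing is read from these counts. OtL017-A04 read 1.28, 1.39, 1.58, 1.45 and 2.06 in head horn, 0.28, -0.01, 0.40, -0.15 and 0.23 in thoracic horn, with legs at -0.39, -0.63, -0.79, -1.04 and -0.19. The 3 tissues did not overlap, with head horn highest and legs lowest. Head horn exceeded legs by 2.16 ± 0.16 (SE, adjusted p = 8.36e-06 by limma), or 4.47-fold. Thoracic horn exceeded legs by 0.76 ± 0.16 (SE, adjusted p = 0.0117 by limma), a call lost without letter C or D. This call was kept with the random replicate block (adjusted p = 0.00214 by limma).

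OtP007-C08 differed from these in that thoracic horn stood apart. It read 0.47, -0.20, 1.24, -0.01 and 0.81 in head horn, -1.11, -1.44, -1.08, -1.46 and -0.35 in thoracic horn, with legs at -0.15, -0.10, 0.54, -0.10 and 0.73. Thoracic horn was below all arrays of the other tissues, which overlapped with each other. Relative to legs it was lower by 1.27 (difference -1.27 ± 0.21, SE, adjusted p = 0.00299 by limma).

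In 4 of the 8 clones that most favoured head horn 1 array weighed heavily. In OtL003-B02 thoracic horn stood at -6.67 in letter C and between -1.47 and -0.24 in the others, and the horn difference was 0.97 without letter C, against 1.85 with it. Thoracic horn of OtL011-D01 was at -3.81 in letter C and between -0.12 and 1.05 elsewhere, with a horn difference of 0.98 without letter C, against 1.57. For OtP008-C03 it was at -3.50 in letter C and between -0.48 and 0.13 elsewhere, with a difference of 1.06 without letter C, against 1.5. OtL008-F08 stood at 5.92 in letter D of head horn and between -2.32 and -0.09 in the others, and its difference was 0.36 without letter D, against 1.61. In OtL020-C08 the difference was 1.09 without letter C, against 1.48. It read -0.04, 0.62, 1.73, 1.27 and -0.28 in head horn, -1.11, -0.47, -1.47, -0.35 and -0.84 in thoracic horn, with legs at -0.15, -0.60, -0.12, 0.83 and -1.13.

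**Figure D4:**
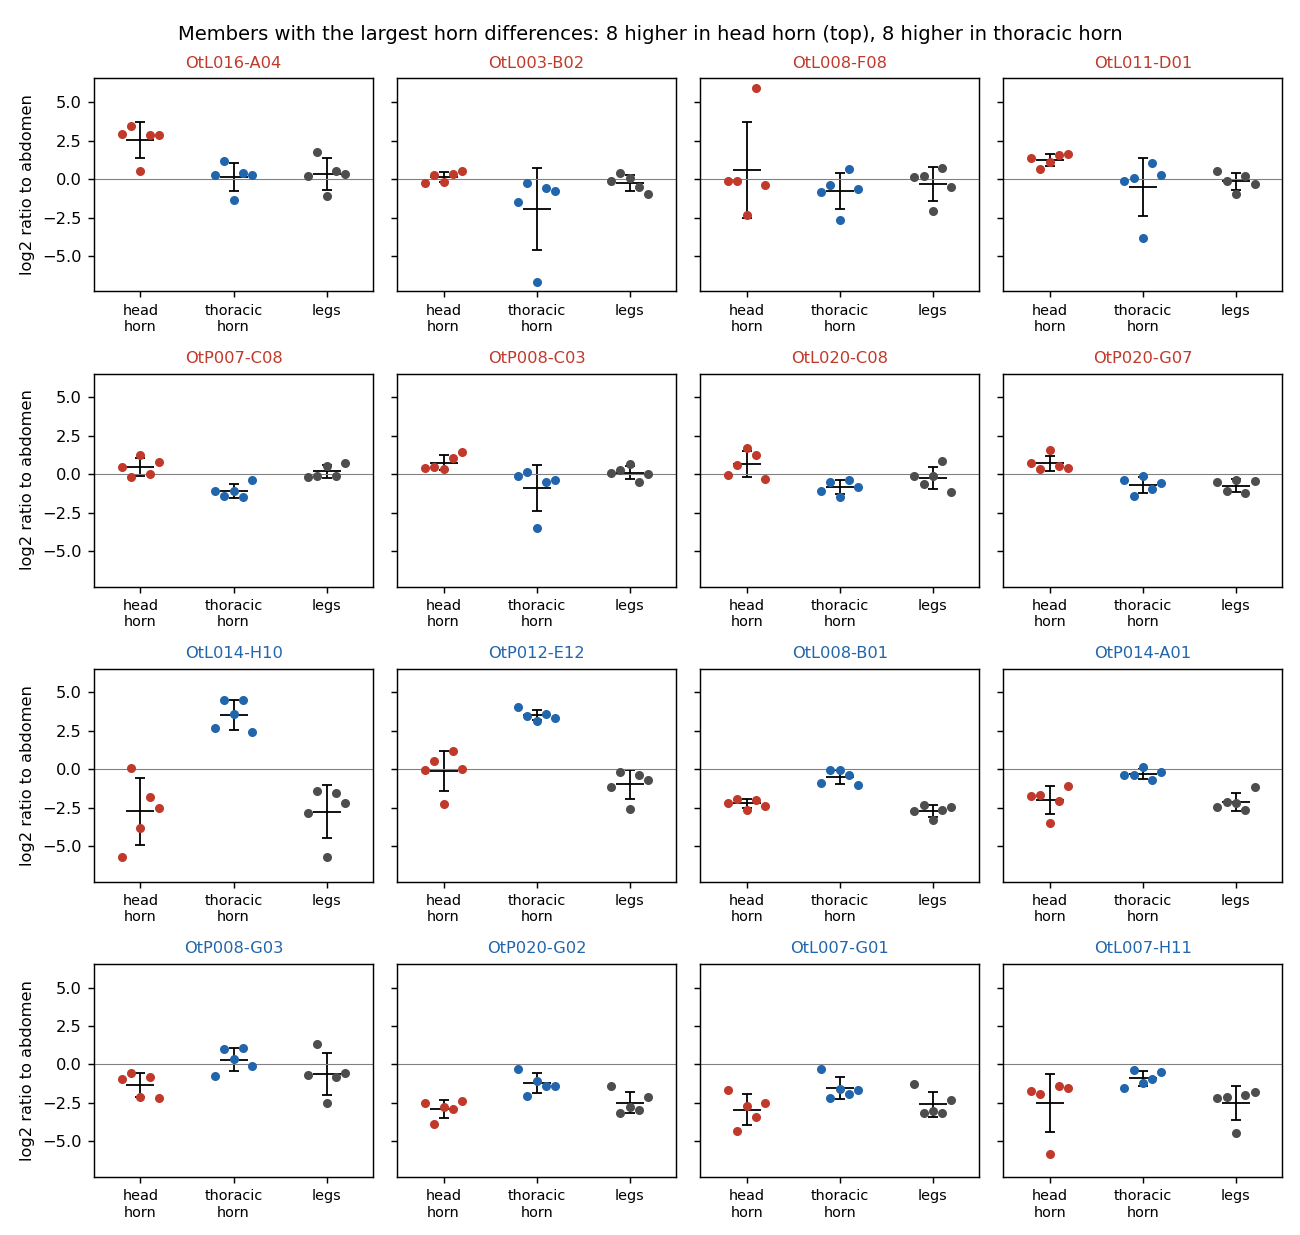
Log2 ratio to abdomen on each array (points, letters A to E from left to right) in head horn (red), thoracic horn (blue) and legs (grey) for the 8 members that most favoured head horn (upper 2 rows, red titles) and the 8 that most favoured thoracic horn (lower 2 rows, blue titles); black marks are the mean and SD over 5 arrays. OtL014-H10 and OtP012-E12 are high in thoracic horn alone, and single low thoracic horn arrays are seen in OtL003-B02, OtL011-D01 and OtP008-C03.

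The place of legs relative to the horns was read next. Among the 62 clones higher in thoracic horn, legs lay nearer to head horn in 46 and nearer to thoracic horn in 16. Among the 24 clones higher in head horn the split was 12 against 12. Over the complete clones that are no members, legs lay nearer to head horn in 54.4%. The difference between the kinds was not tested, since clones are not replicates. On a scale where thoracic horn is 0 and head horn is 1, the median place of legs was 0.97 for the clones higher in thoracic horn and 0.49 for the clones higher in head horn. At or above 0.75, near head horn, were 38 of the 62 and 9 of the 24 clones, and at or below 0.25, near thoracic horn, were 13 and 7.

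The same was seen letter by letter. In clones higher in thoracic horn, legs were nearer to head horn in 43, 40, 45, 48 and 44 of the 62 clones in letters A to E. In clones higher in head horn the counts were 14, 10, 13, 8 and 10 of 24. Legs were nearer to head horn in all 5 letters for 32 of the 62 clones and in no letter for 7, against 3 and 5 of the 24 clones. The clones that the last condition took out bear on this comparison. In all 25 of them that were higher in head horn, legs lay nearer to thoracic horn, and with the removed clones added back legs were nearer to head horn in 48 of 64 clones higher in thoracic horn and in 12 of 49 clones higher in head horn. With or without these clones, then, legs were on the lower side in most clones higher in thoracic horn, and on the lower side in 37 of 49 clones higher in head horn once the removed ones were included.

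**Figure D5:**
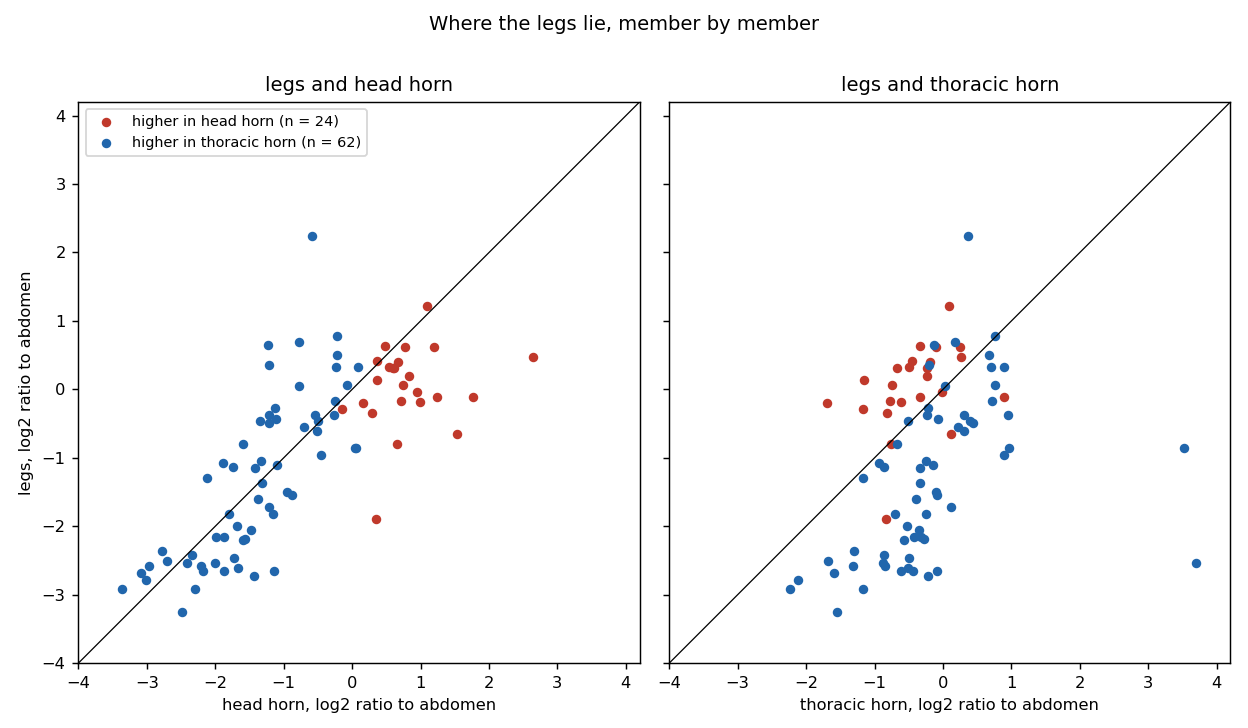
Balanced mean of legs (vertical axis) against that of head horn (left) and thoracic horn (right), all as log2 ratio to abdomen, for the 24 members higher in head horn (red) and the 62 higher in thoracic horn (blue); the line marks equal values. The blue points scatter around the line for head horn and lie mostly below it for thoracic horn, while the red points lie mostly below the line for head horn and above it for thoracic horn.

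Legs against abdomen entered the choice through the last condition, which took out 27 clones with legs at 0.3 or more, 25 of them higher in head horn. Of the 62 clones higher in thoracic horn, 42 were called negative in legs and 3 positive, where 17.6% and 22.3% of all tested clones were (39.9% in either direction). With the 2 removed clones of this direction added back, 42 of 64 were called negative and 4 positive. Of the 24 clones higher in head horn, 4 were called positive and 3 negative. With the 25 removed clones added back, 25 of 49 were called positive and 3 negative, so the small positive count among the members is set by the rule and nothing is read from it. Counts for legs changed little with the processing, at 47 to 56 of the 86 members over the alternatives tried. The abdominal samples carry their own numbers for each tissue, and whether those of 1 letter came from the same animals is not stated.

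Set against each horn directly, legs parted from thoracic horn more often than from head horn among the clones higher in thoracic horn. Thoracic horn was called above legs in 31 of these 62 clones and below legs in 0, where 5.32% and 5.67% of all clones were. Head horn was called above legs in 3 and below legs in 6, where 3.12% and 3.36% of all clones were (6.49% in either direction). Among the 24 clones higher in head horn, head horn was called above legs in 6 and below in 0, and thoracic horn was called above legs in 1 and below in 4. The horn arrays in these comparisons also chose the members and the leg arrays are shared between them, so the counts are a description. Arrays of a letter deviated together, and in a fit with a random replicate block for the letter the counts for the 62 clones were 43 and 0 for thoracic horn and legs, and 10 and 15 for head horn and legs. For the 24 clones they were 8 and 0 for head horn and legs, and 3 and 7 for thoracic horn and legs. Over all clones the block also raised the calls, to 736 for head horn and legs and 944 for thoracic horn and legs.

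For completeness, 26 of the 86 members were called between the horns themselves, 7 higher in head horn and 19 higher in thoracic horn, where 0.874% of all tested clones were called. With the letter as a random replicate block 54 members were called, against 99 clones in all. The rule used this contrast, so nothing is read from these counts.

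In 3 clones higher in thoracic horn, legs were called below both horns in the fit without pairing, and in 10 with the letter as a random replicate block. OtL019-G12 read -1.28, -1.38, -1.51, -1.57 and 0.40 in head horn, 0.64, -0.25, -0.56, -0.56 and 0.59 in thoracic horn, with legs at -3.02, -2.55, -2.59, -2.88 and -2.15. Legs lay below all horn arrays, and thoracic horn exceeded them by 2.61 ± 0.35 (SE, adjusted p = 7.07e-04 by limma), or 6.09-fold. OtL010-H05 and OtL013-D12 were graded in the same way, with balanced means of -1.67 and -1.72 in head horn, -0.51 and -0.49 in thoracic horn, with legs at -2.60 and -2.47. Thoracic horn exceeded legs by 2.12 ± 0.22 and 1.95 ± 0.19 in these clones (SE, adjusted p = 9.38e-05 and 7.42e-05 by limma). Head horn exceeded legs by 1.57 ± 0.35, 0.99 ± 0.22 and 0.70 ± 0.19 in the 3 clones (SE, adjusted p = 0.0247, 0.0222 and 0.0491 by limma), and these calls were lost without 1 of several letters. All of them held with the letter as a random replicate block (adjusted p = 0.00296, 0.00454 and 0.0126 by limma). That of OtL013-D12 was also lost when the model held no term for dye layout (adjusted p = 0.0964 by limma). With arrays centred and scaled it was lost too (adjusted p = 0.0717 by limma).

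The lowest legs among the clones higher in thoracic horn were those of OtL003-C12 and OtL007-A03. OtL003-C12 read -2.47, -1.80, -3.07, -3.04 and -2.14 in head horn, -1.71, -1.49, -1.19, -1.66 and -1.69 in thoracic horn, with legs at -3.45, -2.80, -3.71, -3.60 and -2.78. OtL007-A03 read -2.06, -2.22, -2.42, -3.00 and -1.51 in head horn, -1.44, -1.2, -0.66, -1.33 and -1.08 in thoracic horn, with legs at -2.94, -3.09, -3.00, -3.02 and -2.41. All arrays of both clones were below abdomen, in the order thoracic horn, head horn, legs by their means. Thoracic horn exceeded legs by 1.72 ± 0.27 and 1.75 ± 0.22 (SE, adjusted p = 0.00195 and 4.24e-04 by limma). Head horn exceeded legs by 0.77 and 0.65, which was called only with the letter as a replicate block (adjusted p = 0.0290 and 0.0311 with the random block, 0.109 and 0.0945 without it, by limma).

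Legs were highest in OtL016-G03, a clone with a horn difference of -0.96, or -0.23 without letter D. It read 1.72, 0.07, -0.52, -2.74 and -0.72 in head horn, 1.84, 0.15, -0.21, 0.28 and -0.04 in thoracic horn, with legs at 2.98, 2.97, 0.96, 3.41 and -0.06. Legs exceeded abdomen by 2.06 ± 0.59 (SE, adjusted p = 0.0126 by limma), which was not called without letter B. Next came OtL010-G03, with legs at 0.49, 1.05, 0.78, 0.87 and 0.53 and a fit of 0.83 ± 0.25 (SE, adjusted p = 0.0163 by limma). The legs of OtL010-G03 were not called without letter A or E, nor with no term for dye layout (adjusted p = 0.0851 by limma). Its thoracic horn was at -0.07, 1.01, 0.40, 1.75 and 0.09, and its head horn at -0.12, 0.51, -2.14, 0.15 and -0.08, where letter C alone was far below abdomen. The horn difference of OtL010-G03 was -0.58 without letter C, against -0.98. Head horn minus legs was -2.49 in OtL016-G03 and -1.08 in OtL010-G03. Both were called with the letter as a random replicate block (adjusted p = 0.0218 and 0.0397 by limma), and neither without it (0.0888 and 0.0837). Thoracic horn minus legs was not called with that block in either clone (adjusted p = 0.0900 and 0.843 by limma).

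Among the clones higher in head horn, legs were lowest in OtP003-H05, at -1.36, -1.22, -2.77, -3.07 and -0.82. Its head horn read 0.27, 1.14, 0.16, -0.73 and 1.08 and its thoracic horn -0.38, -0.24, -1.25, -2.04 and 0.04, so the tissues were graded from head horn over thoracic horn to legs in every letter. Legs were below abdomen, at -1.90 ± 0.37 (SE, adjusted p = 0.00102 by limma) and head horn exceeded legs by 2.23 ± 0.52 (SE, adjusted p = 0.0277; not called without letter A, C or E). Thoracic horn exceeded legs by 1.08 ± 0.52, called only with the letter as a replicate block (adjusted p = 0.0280 with the random block, 0.193 without it, by limma). The random block also kept the call of head horn above legs (adjusted p = 7.86e-04 by limma).

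Legs were highest in OtL008-E04 and OtP008-D06, where they lay on the side of head horn. OtL008-E04 read 1.24, 1.78, 0.73, 1.34 and -0.10 in head horn, -0.03, 0.63, -0.06, 0.71 and -1.39 in thoracic horn, with legs at 0.65, 1.44, 0.85, 1.73 and 1.07. OtP008-D06 read 0.19, 0.84, -0.64, 1.2 and 0.27 in head horn, 0.05, 0.34, -1.17, -0.50 and -0.64 in thoracic horn, with legs at 0.63, 0.75, 0.16, 1.0 and 0.42. Relative to legs, thoracic horn was lower in both, with differences of -1.17 ± 0.29 and -0.98 ± 0.26 (SE, adjusted p = 0.0229 and 0.0346 by limma). The horn difference of OtP008-D06 was 0.51 without letter D, against 0.81. Neither call was kept without letter B, C or D, and that of OtP008-D06 was also lost without E. Both calls were lost when the model held no term for dye layout (adjusted p = 0.105 and 0.104 by limma). Both held with the letter as a random replicate block (adjusted p = 0.00474 and 0.00618 by limma).

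The members were also read for features other than the horn difference. The dye layout term and the spread of replicates rest on arrays that chose the members, so both are a description. The ID prefix OtL was carried by 48 of the 86 members (55.8%), against 53.8% of complete clones, and by 12 of 24 and 36 of 62 in the 2 directions. Members came from 34 of the 40 plates named in the IDs, with at most 6 on a plate. The dye layout term, the difference between letters A, C and E and letters B and D, was called in 24 members, 14 positive and 10 negative, where 22.6% of all tested clones were called, 9.40% positive and 13.2% negative. Replicate arrays of members spread more than those of complete clones, with a median SD of 0.57 in head horn, 0.52 in thoracic horn and, for legs, 0.47 (n = 5 each), against 0.38, 0.32 and 0.33. OtL002-H03, named after its values were seen, was the extreme case, with arrays between -3.22 and 3.58 in head horn, -3.08 and 6.20 in thoracic horn, with legs between -6.13 and 3.38. This clone split by dye layout, with letters A, C and E positive and letters B and D negative in every tissue. Its dye layout term was 5.93 ± 0.76 (SE, adjusted p = 3.23e-04 by limma). Its horn difference nonetheless kept 1 sign, at -0.14 to -3.25 in the 5 letters, and was -0.52 without letter E, against -0.91.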

How the data were processed

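Spotted 2-colour arrays measured appendage and abdominal RNA in 15 hybridisations. The deposited values, log ratios of the authors that are read here as log2, were made with limma per the submitters' processing notes; background correction, normalization, the log base, on which each printed fold rests, and the filter behind the 1799 empty cells are not stated in the labels or headers. Samples were grouped by tissue from the labels.

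Members and lists were chosen with earlier results of these data known. limma 3.58.1 (R 4.3.3) fitted a model per clone to the 15 arrays together, with a coefficient per tissue and 1 term for dye layout, for 3777 clones with at least 3 arrays per tissue. Each difference between tissues was fitted as a coefficient of its own, and p-values were adjusted by Benjamini-Hochberg over all clones tested. The fit was tested on simulated data that held no dye layout effect and no correlation within a letter. That test therefore does not show how the fit fares with either. Precision is limited by the number of arrays, and p-values reflect how far these arrays spread.

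Within tissues, arrays of opposite dye layout correlated at 0.25 to 0.50 over clones, so values were taken as already turned. Arrays of the same layout correlated more closely, at 0.60 to 0.72. The same letters were used for every tissue, and deviations of same-letter arrays from tissue means correlated at 0.36 to 0.65 in 15 pairs. Arrays of a letter also share a dye layout, which may add to these values. When the model held the dye layout term, the consensus correlation within a letter was 0.39. Same-letter arrays were therefore treated as paired where a replicate block is given. This pairing comes from the data, since the labels tie animals only within an array.

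Clones were named by a rule: in each direction the 8 largest horn differences, the 2 highest and 2 lowest legs, the 2 nearest the threshold on either side, opposite calls in the horns, and legs called below or above both horns; exceptions are stated. Alternatives were leaving out each letter, letter blocks, no dye term, centred or scaled arrays, complete clones, other thresholds, plain means and no exclusion. Figures were drawn with matplotlib 3.10.9.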

Additional observations from a re-analysis of the deposited data

Results flagged for a closer look

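In 12 of 90 sets of 5 arrays of the named members, 1 array stood apart from the rest beyond Dixon's limit, where chance gives about 1 in 20. Of these arrays 10 were of horns and 2 of legs, and the named members were picked for their horn values, so this count is not a test against chance. Letter C held 7 of these: OtL016-A04 in head horn (0.50), OtL003-B02, OtL011-D01 and OtP008-C03 in thoracic horn (-6.67, -3.81 and -3.50), OtL007-H11 in head horn (-5.84) and legs (-4.46), and OtL010-G03 in head horn (-2.14). The others were OtL008-F08 in head horn D (5.92), OtL007-A03 in legs E (-2.41), OtL016-G03 in thoracic horn A (1.84), OtL019-G12 in head horn E (0.40) and OtL010-H05 in thoracic horn A (-1.11).

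A horn and legs differed by limma in 23 of 60 comparisons of named members. Differences between thoracic horn and legs that were called under all 11 alternatives tried were those of OtL014-H10 (6.28), OtP012-E12 (4.5), OtL019-G12 (2.61), OtL008-B01 (2.21), OtL010-H05 (2.12), OtL013-D12 (1.95), OtL007-A03 (1.75), OtL003-C12 (1.72) and OtP007-C08 (-1.27). For head horn and legs these were OtL017-A04 (2.16) and OtP020-G07 (1.44).

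The other 12 were lost under at least 1 alternative, though each was called with the letter as a random replicate block. Between thoracic horn and legs they were OtP014-A01 (1.83), OtL015-B12 (1.39), OtP020-G02 (1.25), OtP012-D08 (0.88), OtL017-A04 (0.76), OtL008-E04 (-1.17) and OtP008-D06 (-0.98). Between head horn and legs they were OtP003-H05 (2.23), OtL016-A04 (2.19), OtL019-G12 (1.57), OtL010-H05 (0.99) and OtL013-D12 (0.70). The horn arrays also chose these clones.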

How the results depend on the processing

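The 24 clones higher in head horn became 42 at a threshold of 0.6, 15 at 1.0 and 49 without the exclusion, and the 62 higher in thoracic horn became 33 at 1.0; without single letters the counts ran from 24 to 35 and from 57 to 77. Without the exclusion 43.4% of members were higher in head horn, against 27.9%. Members called between head horn and legs (15) numbered 33 with the letter as a random replicate block, 34 with it as a fixed block, 8 without the dye term and 4 to 9 without single letters. Between the horns (26) they numbered 54 and 54 with the blocks, 16 without the dye term, 15 with scaled arrays and 5 to 20 without single letters. Calls against abdomen and between thoracic horn and legs stayed within 1.5 times, at 57 to 64 (head horn), 26 to 34 (thoracic horn), 47 to 54 (legs) and 26 to 34 (thoracic horn and legs) without single letters. Clones higher in head horn with legs near thoracic horn (7) numbered 12 with 1 border at 0.5, 31 without the exclusion and 6 to 10 without single letters; those with legs near head horn (9) numbered 5 to 9. Clones higher in thoracic horn with legs near head horn numbered 35 to 43, and near thoracic horn 11 to 14. Of 960 values of named members under alternatives, 45 lost and 18 gained a call, and 0 changed sign with a call. The cause was not tested. Without scanner intensities the signal behind each ratio is unknown.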
